A study of Mus musculus with 42 samples.

Results

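Peroxisome proliferator-activated receptors (PPARs) are nuclear receptors that bind fatty acids and switch on genes of lipid use and storage. They were followed here with their partners and coactivators, 8 genes in all, in mouse aorta and skeletal muscle. The genes are the receptors Ppara, Ppard and Pparg, the retinoid X receptors Rxra, Rxrb and Rxrg, and the coactivators Ppargc1a and Ppargc1b, chosen by name among the 21186 gene symbols on the array, on which 13 of 41174 probes carry these names. The study placed male mice in 7 groups. Group G held healthy C57BL/6 mice and group A diabetic KK/Ay mice, both given saline. Group C, also given saline, held KK/Ay mice on a high-fat diet with the nitric oxide synthase inhibitor L-NAME in the drinking water, the model of diabetic macroangiopathy. Mice of that same model received SHENQI compound (B), its yangyinyiqi part (D), its huoxue part (E) or rosiglitazone (F), so that the diet and L-NAME were shared by groups B, C, D, E and F. KK/Ay mice owe their obesity and diabetes in part to a yellow agouti allele, and every comparison with group G is therefore also one between strains. Each group and tissue had 3 arrays, which gives 42 arrays on 11 slides. The labels do not say which arrays come from the same mouse, and P values measure the spread between these arrays.

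PPARs bind DNA as pairs with a retinoid X receptor (RXR), which is also the partner of the liver X, thyroid hormone, vitamin D and retinoic acid receptors. Ppara is known for fatty acid oxidation, Ppard for oxidative metabolism in muscle and Pparg for the formation of fat cells, and Pparg is the receptor that rosiglitazone activates. Ppargc1a and Ppargc1b code for PGC-1α and PGC-1β, which do not bind DNA themselves but are brought to PPARs, to estrogen-related receptors and to Nrf1, and raise mitochondrial gene expression.

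Levels are normalized log2 intensities, on which a difference of 1 is a doubling. A level on an array depends on the probe, so only levels of the same gene were compared. A gene was called at an unadjusted P value below 0.05 in limma, the threshold of the study's methods, and the P value adjusted by Benjamini-Hochberg over all genes tested is given beside it. All 8 genes were above the filter on dim probes in every comparison. Ppard was dim, with its probe well above background on 14 of 21 aorta and 15 of 21 muscle arrays, whereas the other 7 genes were well above background on all 42 arrays.

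The arrays differed in ways that bear on these genes. Slides 1, 3 and 11 stood apart from the other 8 slides in a score of 200 genes, at 0.741 to 1.127 against -0.201 to 0.065. In muscle, all arrays of groups E and F and healthy arrays 1 and 2 lay on slides 3 and 11, and no array of group C did, so slide and group cannot be told apart in E vs C and F vs C in muscle. In aorta, slide 1 held healthy arrays 1 and 3, array 1 of group A and array 1 of group B. The smooth muscle markers had a mean level of 9.66 on healthy aorta array 1, within the 9.34 to 10.76 of the muscle arrays, and 12.35 or more on every other aorta array. That array also had the highest macrophage and lymphocyte marker levels in aorta, 9.81 and 9.34. Adipocyte markers were at 11.25 to 13.79 in aorta and 9.43 to 12.29 in muscle, and brown adipocyte markers at 11.61 to 14.21 in aorta and 8.37 to 10.2 in muscle. With only 3 arrays behind each mean, precision is limited throughout.

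Where the probes and genes lie is shown first, since results on Rxra turn on its probes. The Ppara probe lies at chr15:85631955-85632014, the Ppard probe at chr17:28436596-28436655, the Pparg probe at chr6:115440213-115440272 and the Rxrg probe at chr1:169569624-169569683 of mm9, all on the plus strand. Rxra had a first probe (A_51_P307370) at chr2:27615316-27615375 and a second probe (A_52_P188139) at chr2:27618411-27618470. GC bases made up 48.3% of the first and 35.0% of the second. The leading 30 bases of each, at chr2:27615316-27615345 and chr2:27618411-27618440 on the plus strand, are given because both probes carry the name Rxra. Both were called, in opposite directions, in 1 comparison, E vs C in muscle.
Rxra, first probe: gtccttatgggcccaaaagatgcatcacca
Rxra, second probe: aagaaacaacaacatgagaggagagacaaa

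The DNA upstream of a gene's start is where nuclear receptors, cAMP-regulated factors and muscle factors often bind. RefSeq promoters of GRCm38.p6 were found for 7 of the 8 genes, with 12 starts in all, and were searched on both strands for AGGTCA, the core that nuclear receptors recognise, for CGTCA, the core of a cAMP response element, and for CANNTG, the E-box of muscle regulatory factors. Among 32841 promoters of the same 250 bases, 14% held AGGTCA, 17.8% held CGTCA and 66.2% held an E-box. Pparg and Rxrg differed most between the tissues, and of the coactivators Ppargc1a differed. Ppara, whose difference was larger than that of Ppargc1a, is not shown. The windows of Pparg, Rxrg and Ppargc1a are printed, with motif matches in capitals. They are Pparg start 3 (chr6:115421816-115422065, plus strand), both Rxrg starts (chr1:167598112-167598361 and chr1:167618015-167618264, plus strand) and the Ppargc1a start (chr5:51567726-51567975, minus strand).
Pparg, start 3: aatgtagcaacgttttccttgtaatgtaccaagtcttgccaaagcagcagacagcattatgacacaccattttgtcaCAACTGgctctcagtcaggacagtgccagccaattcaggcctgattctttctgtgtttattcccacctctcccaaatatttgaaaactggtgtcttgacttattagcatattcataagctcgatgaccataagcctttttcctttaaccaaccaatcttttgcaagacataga
Rxrg, start 1: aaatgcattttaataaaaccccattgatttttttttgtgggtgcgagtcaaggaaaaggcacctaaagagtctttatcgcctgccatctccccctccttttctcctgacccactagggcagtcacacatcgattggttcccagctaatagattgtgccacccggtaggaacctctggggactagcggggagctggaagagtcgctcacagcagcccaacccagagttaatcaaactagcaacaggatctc
Rxrg, start 2: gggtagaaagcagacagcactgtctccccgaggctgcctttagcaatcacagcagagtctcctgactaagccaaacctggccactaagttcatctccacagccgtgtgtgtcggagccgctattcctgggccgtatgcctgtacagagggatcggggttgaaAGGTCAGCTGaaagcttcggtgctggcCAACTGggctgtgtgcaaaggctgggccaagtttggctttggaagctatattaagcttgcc
Ppargc1a, start: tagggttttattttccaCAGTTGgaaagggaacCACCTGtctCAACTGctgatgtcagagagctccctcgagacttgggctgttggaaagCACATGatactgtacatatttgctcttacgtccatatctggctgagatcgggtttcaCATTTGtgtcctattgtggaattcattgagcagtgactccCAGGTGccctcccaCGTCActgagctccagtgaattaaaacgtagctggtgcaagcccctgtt
In the Ppargc1a window there were 6 E-boxes and 1 CGTCA, the latter from base -49 to -45 before the start. The second Rxrg window had an AGGTCA from -88 to -83, which overlaps an E-box from -84 to -79, and another E-box from -61 to -56, while the first Rxrg window held none of these motifs. The third Pparg window held 1 E-box, from -173 to -168, and no AGGTCA, whereas the first and second Pparg windows held 1 AGGTCA each. A match says only that these letters are present.

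The tissues differed first. Over the 7 groups, Pparg and Ppara were higher in aorta, Rxrg, Ppargc1a, Rxra, Ppard and Rxrb were higher in muscle, and Ppargc1b did not pass the test. In limma, 7 of the 8 genes were called, where 78.3% of 16176 genes were called between the tissues and 76.9% after adjustment, so the count is near that of all genes and the sizes of the differences are what describes these genes.

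**Figure D1:**
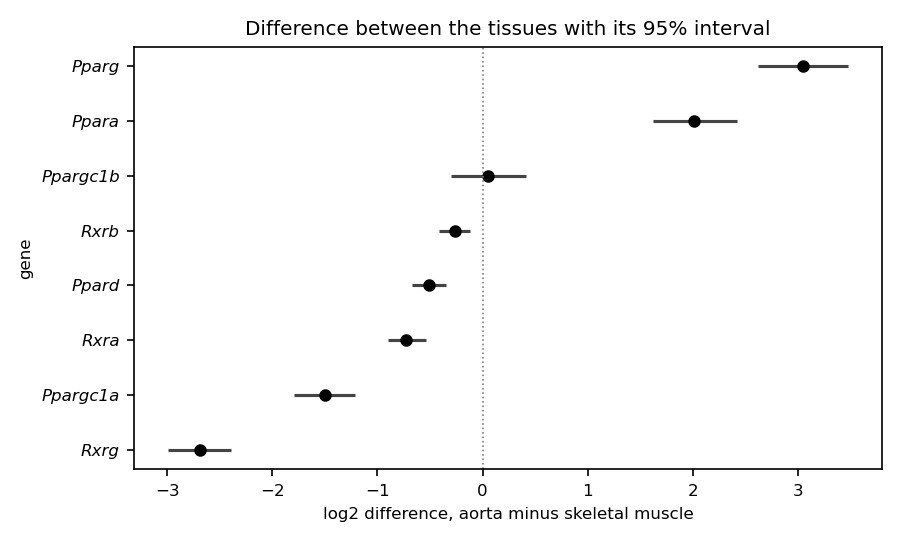
Difference in level between aorta and skeletal muscle for each of the 8 genes, as the mean over 7 groups on the log2 scale, with its 95% interval from limma on 42 arrays. Pparg lies farthest to the side of aorta at 3.05 and Rxrg farthest to the side of muscle at -2.69, and the interval of Ppargc1b, from -0.3 to 0.41, spans 0.

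Pparg had the largest difference. It lay between 10.87 and 14.18 on the 21 aorta arrays, with a median of 12.93, and between 9.2 and 11.01 on the muscle arrays, with a median of 9.67. The lowest aorta array (F1) fell below muscle arrays G1 and B3, and the tissues otherwise did not overlap. The difference was 3.05 ± 0.21 (SE), or 8.28-fold (adjusted p = 2.11e-14). Adipocyte markers were also higher in aorta, 7 of 8 called with a median of 2.55, as were 5 of 6 brown adipocyte markers, led by Ucp1 at 9.78. Between the tissues 78.3% of all genes were called. In a whole tissue, fewer cells of a type and less RNA per cell cannot be told apart, and the part of fat around the vessel in the Pparg level was not tested.

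Ppara ranged from 9.87 to 12.64 in aorta (median 11.39) and from 8.85 to 10.33 in muscle (median 9.19), with some overlap. It was 4.05-fold higher in aorta (2.02 ± 0.20 SE, adjusted p = 9.62e-11). Ppard went the other way by a smaller amount, 1.42-fold higher in muscle (-0.51 ± 0.08 SE, adjusted p = 1.25e-06), at 5.31 to 6.19 in aorta and 5.8 to 6.98 in muscle. The PPARs therefore did not share a direction.

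All RXR genes were higher in muscle, but to unequal degrees. Rxrg, the RXR typical of skeletal muscle, lay between 9.04 and 11.47 in aorta (median 10.48) and between 10.74 and 13.61 in muscle (median 13.26), where the lowest value was that of healthy array 3. It was 6.45-fold higher in muscle (-2.69 ± 0.15 SE, adjusted p = 6.25e-17). Rxra was 1.65-fold higher in muscle (-0.72 ± 0.09 SE, adjusted p = 9.43e-09), with the first probe at -1.08 and the second at -0.37, both called. Rxrb was 1.2-fold higher in muscle (-0.26 ± 0.07 SE, adjusted p = 0.0014). This call rested on 1 of its 2 probes: A_51_P314830 gave -0.42, and A_52_P519689, the brighter, gave -0.11 (adjusted p = 0.167). Quantile normalization within each tissue also ended it, at -0.03.

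The coactivators differed from each other. Ppargc1a lay between 7.84 and 10.3 in aorta (median 8.8) and between 9.76 and 11.21 in muscle (median 10.32), 2.83-fold higher in muscle (-1.50 ± 0.14 SE, adjusted p = 5.38e-11), and its 2 probes gave -1.53 and -1.47. Ppargc1b lay between 9.07 and 11.49 in aorta and between 8.7 and 10.65 in muscle. Its difference of 0.06 had an interval from -0.3 to 0.41 (adjusted p = 0.77), and its 3 probes gave 0.10, 0.09 and -0.02.

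**Figure D2:**
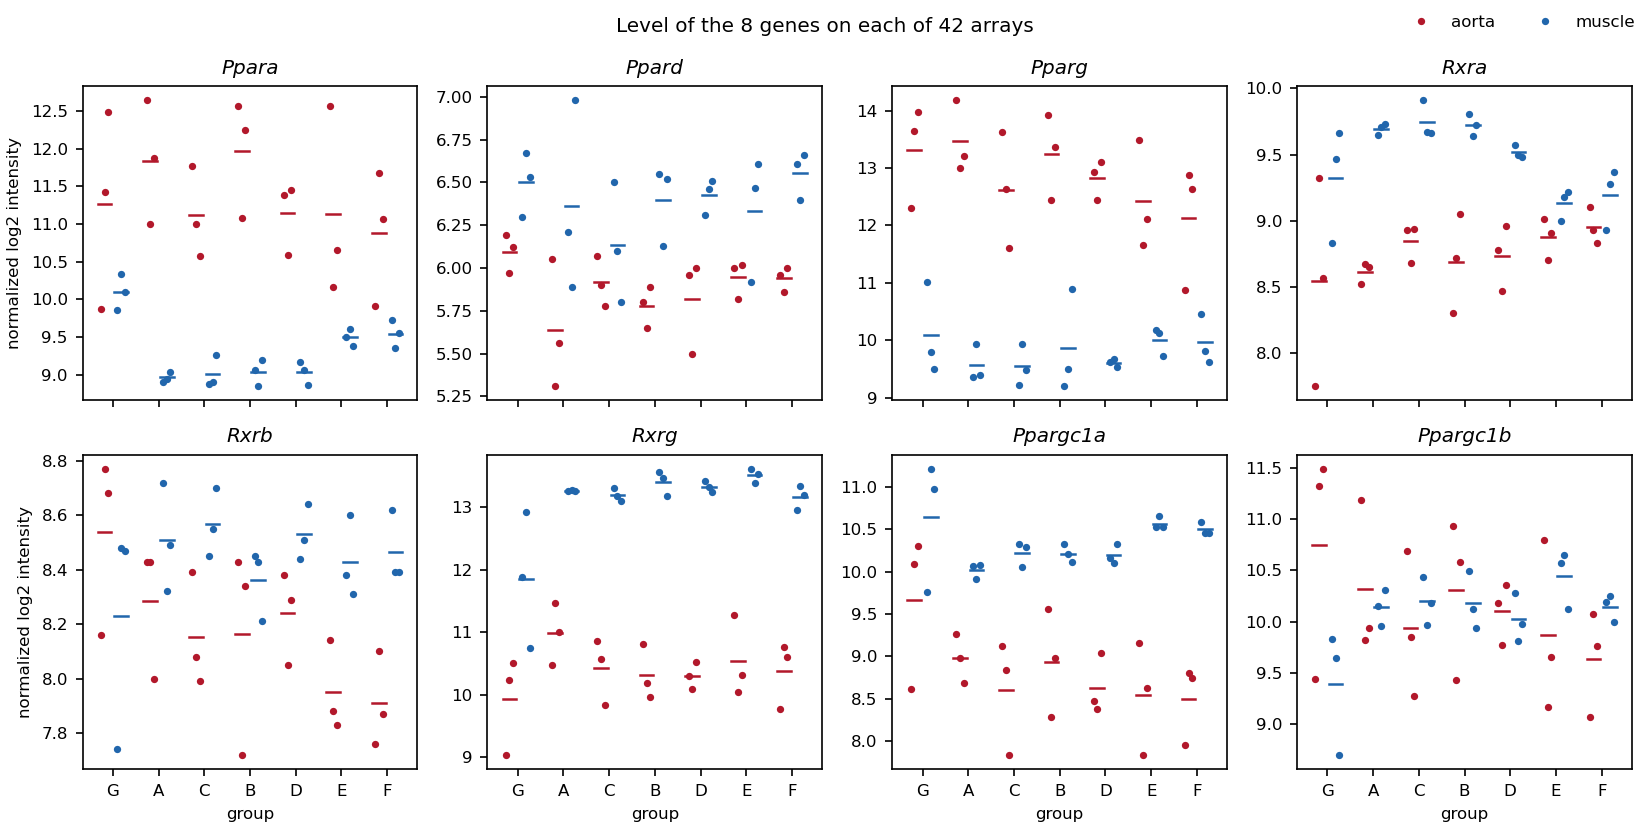
Normalized log2 intensity of the 8 genes on each of 42 arrays, with aorta in red and skeletal muscle in blue, groups in the order healthy (G), diabetic (A), macroangiopathy (C), SHENQI compound (B), yangyinyiqi part (D), huoxue part (E) and rosiglitazone (F), and a line at each group's mean (n = 3). Among the muscle groups, healthy mice have the highest Ppara mean, 10.1, and the lowest Rxrg mean, 11.85, and the vertical scales differ between genes.

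The order of the groups within a tissue was mostly inside the spread of the arrays. In aorta, Pparg means ran from 13.46 in group A through G (13.31), B (13.24), D (12.82), C (12.62) and E (12.42) to 12.12 in F, with SDs of 0.34 to 1.09, and no neighbours were separated. Ppara ran from 11.96 in B and 11.84 in A through G (11.26), D (11.14), E (11.13) and C (11.11) to 10.88 in F (SDs 0.48 to 1.32). Both genes had group A among the highest means and F at the bottom. Ppargc1a ran from 9.67 in G through A (8.98), B (8.94), D (8.63), C (8.6) and E (8.54) to 8.5 in F, and Ppargc1b kept this same order of groups, from 10.75 in G to 9.63 in F. Rxrb fell in nearly the same order from 8.54 in G to 7.91 in F. Rxrg was highest in A (10.99) and lowest in G (9.93), and Rxra means lay within 8.55 to 8.95. Neighbours in these orders lay within the SDs of their groups.

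In muscle the arrays of a group lay closer together, and some groups separated. Ppara was highest in G (10.1 ± 0.24 SD), followed by F (9.55 ± 0.19) and E (9.5 ± 0.12), while B, D, C and A lay between 9.04 and 8.97. Rxrg ran from 13.51 in E through B (13.4), D (13.32), A (13.26) and C (13.2) to 13.17 in F, and then dropped to 11.85 ± 1.09 in G. Ppargc1b was also lowest in G, at 9.39 ± 0.61, with the other groups between 10.02 and 10.45. Rxra was highest in C (9.75), B (9.72) and A (9.7), then D (9.52) and G (9.32), and lowest in F (9.19) and E (9.13). Ppargc1a ran from 10.65 ± 0.78 in G, 10.57 in E and 10.5 in F to 10.22 in C, 10.21 in B, 10.19 in D and 10.02 in A. Pparg (9.55 to 10.1), Rxrb (8.23 to 8.57) and Ppard (6.13 to 6.56) showed no separated neighbours.

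The comparison of diabetic with healthy mice (A vs G) asks how the receptors differ in spontaneous diabetes. Rxrg was higher in KK/Ay mice and Ppara was lower in their muscle, while Pparg did not pass any test. With both tissues in the fit, 1 of 8 genes was called, Rxrg, where 22.1% of 14808 genes were called and 4.50% after adjustment.

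Rxrg in healthy muscle was 11.88, 12.92 and 10.74, and in diabetic muscle it was 13.26, 13.27 and 13.26. All diabetic arrays were above all healthy ones and nearly identical, while the healthy arrays spread widely. In aorta the healthy values were 9.04, 10.24 and 10.5 and the diabetic ones 10.48, 11.47 and 11.01, and the groups overlapped narrowly. The change was 1.24 ± 0.35 SE over both tissues (2.36-fold, adjusted p = 0.0698), 1.06 ± 0.51 in aorta (adjusted p = 0.33, not called) and 1.42 ± 0.51 in muscle (adjusted p = 0.264), where 12.7% of genes were called. It was 0.98 to 1.46 when any array was left out, and the joint call held in each case. In muscle the call was lost without healthy array 3 (0.87, adjusted p = 0.499). On slide 3, which held healthy muscle arrays 1 and 2, rosiglitazone arrays 2 and 3 read 13.34 and 13.2. On slide 1 the diabetic aorta array was 0.71 above the mean of the 2 healthy ones.

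Some cell type markers also differed between healthy and diabetic muscle. The 5 macrophage markers, all above background, had mean levels of 8.36, 7.99 and 9.14 on the healthy muscle arrays 1 to 3 and 7.7 to 7.86 in diabetic muscle, and the slow muscle markers were at 13.98 to 14.22 against 14.78 to 15.13. Over the 21 muscle arrays, Rxrg and the macrophage markers had r = -0.94 (permutation p = 0.0001, adjusted p = 0.00201 over 128 relations of a gene with a marker list). The rank correlation was weaker and did not pass after adjustment (rho = -0.45, permutation p = 0.039, adjusted p = 0.161). Without the 2 farthest arrays r was -0.47, and over the 18 KK/Ay arrays it was -0.31, so the relation rests on the healthy arrays. Ppara in muscle rose with the same markers (r = 0.69, rho = 0.63, permutation p = 0.00069, adjusted p = 0.00736), at r = 0.66 without the 2 farthest arrays, 0.88 on the 13 arrays of other slides and 0.52 over the 18 KK/Ay arrays. Ppargc1b in muscle had r = -0.79 with them (permutation p = 0.00224, adjusted p = 0.0159), but rho = -0.36 (permutation p = 0.114, adjusted p = 0.33). Its r was -0.28 without the 2 farthest arrays and -0.06 over the KK/Ay arrays. With the slow muscle markers Rxrg had r = 0.71 (adjusted p = 0.0159) and rho = 0.62 (adjusted p = 0.0266), both by permutation. That r was 0.64 without the 2 farthest arrays and 0.23 over the KK/Ay arrays. Ppara in muscle fell as the brown adipocyte markers rose (r = -0.71, rho = -0.72, permutation p = 0.00018, adjusted p = 0.00288). Over the KK/Ay arrays r was -0.64, and on other slides -0.29. With the slow muscle markers Ppara had r = -0.66 (adjusted p = 0.0126) and Ppargc1b r = 0.64 (adjusted p = 0.0161), by permutation. Their rank correlations did not pass (adjusted p = 0.199 and 0.168). Over the KK/Ay arrays r was 0.06 for each. The part of these cells in the changes of Rxrg, Ppara and Ppargc1b was not tested.

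Ppara in muscle was 9.86, 10.33 and 10.1 in healthy mice and 8.91, 8.95 and 9.04 in diabetic mice, with every diabetic array below every healthy one. The change of -1.13, or 2.19-fold, had an SE of 0.56 and adjusted p = 0.435 in the fit of both tissues, which shares one estimate of the spread between the variable aorta and the steadier muscle. In a fit of the 6 muscle arrays the SE was 0.16 and adjusted p = 0.0195. In that fit 3 of the 8 genes were called, Ppara, Rxrg and Ppargc1b, where 21.2% of genes were called and 3.56% after adjustment. Healthy array 3, on slide 4, read 10.1, above the 8.85 to 9.26 of all muscle arrays of groups A, B, C and D, and with slides 1, 3 and 11 as a batch term the change was -0.82 (adjusted p = 0.43). In aorta Ppara was 9.87, 11.43 and 12.49 in healthy and 12.64, 11 and 11.87 in diabetic mice, with no direction (0.57 ± 0.56 SE, adjusted p = 0.645).

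Ppargc1b in muscle was 9.83, 9.64 and 8.7 in healthy and 10.15, 9.96 and 10.31 in diabetic mice, again without overlap. It was 1.69-fold higher, which was not called in the fit of both tissues (adjusted p = 0.607) and was called in that of the muscle arrays (adjusted p = 0.214). Among the 8 genes these 3, Ppara, Rxrg and Ppargc1b, were those whose healthy and diabetic muscle arrays did not overlap, where this held for 30.1% of all genes. In aorta none of the 8 genes separated, against 18.9% of genes, and none was called, against 17.0%.

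Ppargc1a read 8.62, 10.09 and 10.3 in healthy and 9.26, 8.98 and 8.69 in diabetic aorta, and healthy array 1, with its low smooth muscle markers, was the only one below the diabetic arrays. The change over both tissues was -0.66 ± 0.30 SE and was not called (adjusted p = 0.228). Without healthy aorta array 1 it was -0.89 ± 0.25 (adjusted p = 0.0612). In that fit of 11 arrays 3 of the 8 genes were called over both tissues, Ppargc1a, Rxrg and Ppara, where 20.8% of genes were called. In aorta alone of this fit Ppargc1a changed by -1.22 (adjusted p = 0.109) and Ppargc1b by -1.09 (adjusted p = 0.229), 2 of 8 against 15.7% of genes. Ppargc1b then differed between the tissues, lower in aorta and at +0.76 in muscle (difference -1.85, adjusted p = 0.224), as for 11.7% of genes. Pparg, Rxra, Rxrb and Ppard were not called in any of these fits, with Pparg at 0.15 in aorta (interval -0.96 to 1.26) and -0.54 in muscle (-1.64 to 0.57).

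**Figure D3:**
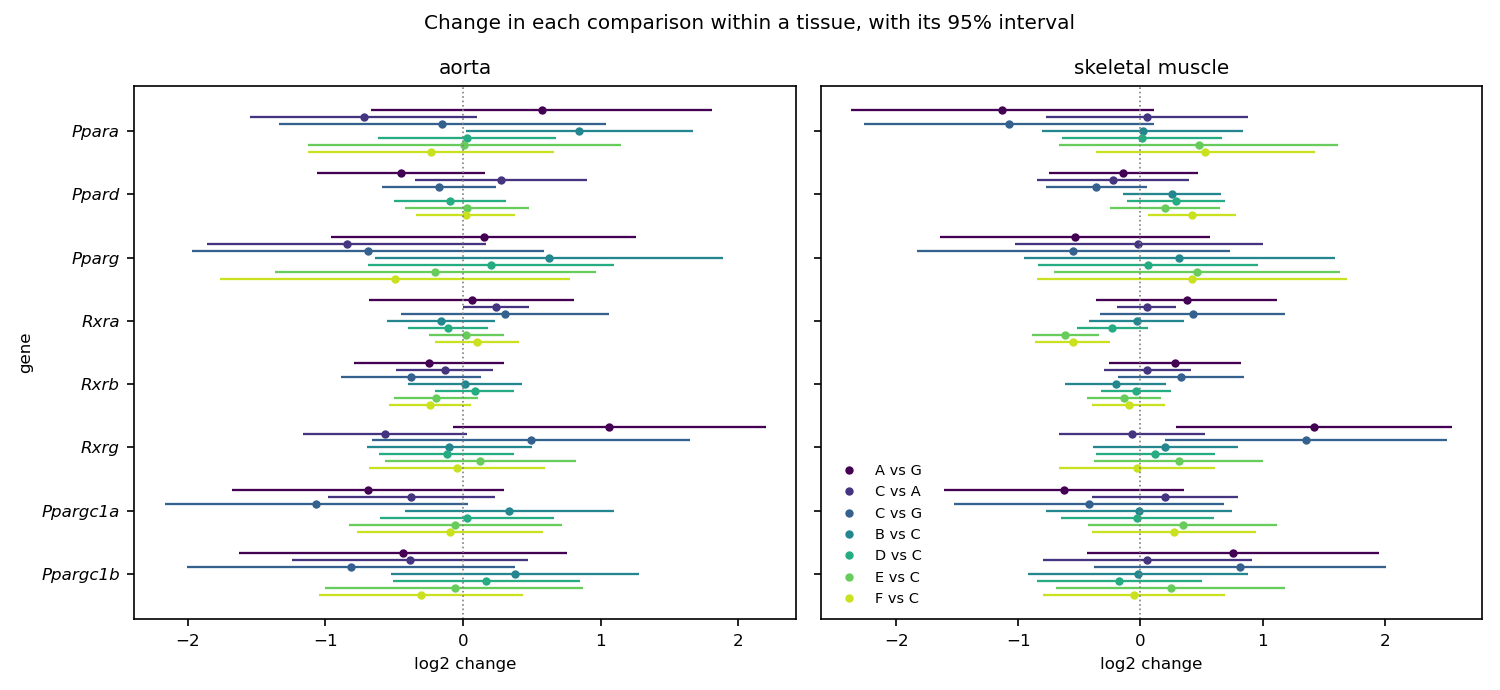
Log2 change of each gene in the 7 comparisons, within aorta on the left and within skeletal muscle on the right, as points with 95% intervals from limma on the 12 arrays of each comparison. The Rxra intervals of E vs C (-0.89 to -0.34) and F vs C (-0.86 to -0.25) and the Rxrg intervals of A vs G (0.29 to 2.55) and C vs G (0.2 to 2.51) lie off 0 in muscle, as does Ppard in F vs C (0.06 to 0.78), and Ppara in B vs C in aorta (0.02 to 1.67), while SHENQI compound for Ppard in aorta is left out because no array of that group was well above background.

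The high-fat diet and L-NAME were compared with diabetes alone (C vs A). None of the 8 genes was called over both tissues in limma, where 5.12% of 15724 genes were called and 0 after adjustment. None was called within aorta (7.73% of genes) or muscle (2.87%) either. The nearest was Rxra in aorta, at 8.52, 8.67 and 8.65 in group A and 8.93, 8.68 and 8.94 in group C, which did not overlap (0.24 ± 0.11 SE, adjusted p = 0.644, not called), as held for 9.57% of genes. Pparg in aorta read 14.18, 13 and 13.21 in A and 13.62, 12.63 and 11.6 in C, a difference of -0.84 with an interval from -1.86 to 0.17. Rxrg (-0.57, adjusted p = 0.667) and Ppara (-0.72, adjusted p = 0.684) in aorta were of the same sign. In muscle the changes of all 8 genes lay between -0.22 and 0.20, and none was called in the 6 muscle arrays alone (6.57% of genes).

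The macroangiopathy model against healthy mice (C vs G) shares its controls with A vs G, so that the values of both are given side by side and the one is no support for the other. Rxrg was again the called gene, 1 of 8 over both tissues, where 24.3% of 15742 genes were called and 5.17% after adjustment. Its values in group C were 13.31, 13.18 and 13.1 in muscle and 10.86, 10.57 and 9.83 in aorta. The change was 0.92 ± 0.38 SE over both tissues (1.9-fold, adjusted p = 0.158, against 1.24 in A vs G) and 1.35 ± 0.52 in muscle (adjusted p = 0.283, against 1.42), where 13.9% of genes were called. In aorta it was 0.50 (adjusted p = 0.596), and none of the 8 genes was called there, against 24.2% of genes. The joint call was lost when any of 7 of the 12 arrays was left out, namely aorta array 1 of either group, healthy muscle array 1 or 3 or any muscle array of group C, with values of 0.63 to 0.90 then. The muscle call was lost without any of 4 arrays, healthy 1 or 3 or group C 1 or 2, with 0.80 (adjusted p = 0.484) without healthy array 3.

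Ppara in muscle of group C was 8.88, 8.91 and 9.26, below all healthy arrays, at -1.08 (2.11-fold). It was not called in the fit of both tissues (adjusted p = 0.416) and was called in the muscle arrays alone (adjusted p = 0.038), and in A vs G the change was -1.13. That fit called Ppara, Rxrg and Ppargc1b, 3 of 8 where 20.2% of genes were called and 2.20% after adjustment. Ppargc1b was 10.44, 9.97 and 10.18 in group C, again above all healthy arrays (0.81, adjusted p = 0.208 in that fit). With Rxra, which was 0.43 above healthy muscle in C and not called (adjusted p = 0.634), 4 of 8 genes did not overlap in muscle, where 28.7% of genes did not.

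Ppargc1a in aorta read 9.12, 8.84 and 7.84 in group C. The change was -1.07 ± 0.50 SE and was not called (adjusted p = 0.222), and it was -1.60 ± 0.44 (3.02-fold, adjusted p = 0.0569) without healthy aorta array 1. Without that array 4 of the 8 genes were called in aorta, where 22.9% of genes were called. They were Ppargc1a, Ppargc1b (-1.47, adjusted p = 0.0607), Ppara (-0.85, adjusted p = 0.21) and Rxrb (-0.57, adjusted p = 0.168). Over both tissues of that fit Ppara (-0.97 ± 0.24 SE, adjusted p = 0.0395), Pparg (-0.84, adjusted p = 0.21) and Ppargc1a (-0.95, adjusted p = 0.121) were called and Rxrg was not (0.77, adjusted p = 0.256), 3 of 8 against 23.0% of genes and 6.04% after adjustment. Thus which of the 8 genes were called against healthy aorta turned on 1 array.

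SHENQI compound was compared with the untreated model (B vs C). None of the 8 genes was called over both tissues in limma, where 2.71% of 15665 genes were called and 0 after adjustment. Within aorta 1 gene was called, Ppara, where 4.67% of genes were. It read 12.57, 11.08 and 12.24 with the compound and 11.77, 11 and 10.57 without, so that the groups overlapped. The change was 0.85 ± 0.37 SE (1.8-fold, adjusted p = 0.978), it was 0.02 in muscle, and the difference between the tissues was not called (adjusted p = 1). The call was lost when any of 10 of the 12 arrays was left out, all but aorta array 1 of group C and SHENQI aorta array 2, and the value then lay between 0.54 and 1.29 over the 12. Adipocyte markers read 13.1, 12.9 and 13.02 on these SHENQI aorta arrays and 13.3, 12.26 and 11.92 on those of group C. Pparg read 13.93, 12.44 and 13.36 against 13.62, 12.63 and 11.6 (0.63, interval -0.64 to 1.89). In muscle none of the 8 genes was called, against 1.14% of genes (3.04% in the 6 muscle arrays alone), and on slide 7, which held 2 arrays of each group, Ppara differed by 0.12 and Pparg by 0.62. Ppard in SHENQI aorta was not well above background on any array, and no fold is given.

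The yangyinyiqi part (D vs C) gave no call either over both tissues in limma, where 3.41% of 15893 genes were called and 0 after adjustment, nor within aorta (3.90%) or muscle (1.81%). Changes lay between -0.12 and 0.21 in aorta and between -0.23 and 0.29 in muscle. Rxra in muscle read 9.57, 9.5 and 9.48 with the treatment and 9.91, 9.67 and 9.66 without, which did not overlap, as held for 8.82% of genes. The difference was -0.23 ± 0.13 SE (adjusted p = 1), and it was called in the fit of the 6 muscle arrays (adjusted p = 0.992), where 3.72% of genes were called. No D or C array lay on slides 1, 3 or 11.

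With the huoxue part (E vs C), Rxra was lower in muscle, on arrays of slide 11. Its values were 9, 9.18 and 9.22 with the treatment and 9.91, 9.67 and 9.66 without, with no overlap, and 9.01, 8.7 and 8.91 against 8.93, 8.68 and 8.94 in aorta. The change was -0.62 ± 0.12 SE in muscle (1.53-fold lower, adjusted p = 0.012), where 25.4% of 15727 genes were called and 10.6% after adjustment. In aorta it was 0.02, and the difference between the tissues was called (0.64 ± 0.18 SE, adjusted p = 0.0831), as for 17.5% of genes. Over both tissues Rxra was the 1 gene called (-0.30, adjusted p = 0.326), where 14.3% were called. In aorta none of the 8 genes was called, against 4.74% of genes.

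Rosiglitazone (F vs C), the ligand of the Pparg protein, gave no call over both tissues in limma, where 12% of 15845 genes were called. Pparg itself read 10.87, 12.87 and 12.63 in treated aorta against 13.62, 12.63 and 11.6, and 10.45, 9.82 and 9.62 in treated muscle against 9.22, 9.94 and 9.48. The groups overlapped in both tissues. The change was -0.49 in aorta (interval -1.77 to 0.78) and 0.42 in muscle (interval -0.85 to 1.69). On the treated aorta array with the lowest Pparg, array 1, the adipocyte markers were also the lowest of all aorta arrays, at 11.25, and the fast skeletal muscle markers were at 13.65. None of the 8 genes was called in aorta, where 11.6% were.

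In muscle under rosiglitazone 2 of 8 genes were called, where 18.5% of genes were. Rxra read 8.93, 9.28 and 9.37 against 9.91, 9.67 and 9.66, with no overlap (-0.55 ± 0.14 SE, 1.47-fold lower, adjusted p = 0.0568). The difference from aorta, where it was 0.10, was 0.66 ± 0.20 SE (adjusted p = 0.126), called for 16.6% of genes. Ppard read 6.61, 6.4 and 6.66 against 6.5, 6.1 and 5.8 (0.42 ± 0.16 SE, adjusted p = 0.186). The groups overlapped, 1 of 3 arrays was well above background in each, and the call was lost without muscle array 2 or 3 of group C or rosiglitazone muscle array 1 or 3, down to 0.26 (adjusted p = 0.458) without array 3 of group C.

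In fits of the muscle arrays alone, 4 of 8 genes were called in E vs C, where 41.3% of genes were called and 25.7% after adjustment, and 4 of 8 in F vs C, where 27.1% and 6.37% were. Ppara was higher with huoxue (9.5, 9.61 and 9.38, 0.48 ± 0.12 SE, adjusted p = 0.0301) and with rosiglitazone (9.73, 9.36 and 9.55, 0.53 ± 0.14 SE, adjusted p = 0.0685) than the 8.88 to 9.26 of group C. Ppargc1a was higher at 10.53, 10.65 and 10.52 with huoxue (0.35, adjusted p = 0.0381) and at 10.58, 10.45 and 10.46 with rosiglitazone (0.28, adjusted p = 0.135), against 10.06 to 10.32. Rxrg was higher with huoxue by 0.31 (adjusted p = 0.0492), and Rxra was lower with both. Both comparisons share the arrays of group C. All muscle arrays of E lay on slide 11 and those of F on slides 3 and 11, and when slides 1, 3 and 11 were given a batch effect over all 42 arrays, Ppara changed by 0.01 and 0.07, Rxra by -0.02 and 0.05 and Ppargc1a by 0.29 and 0.22, none of them called. Slide and treatment cannot be told apart in this tissue. Groups did not overlap for 46.7% of all genes in E vs C and for 34.7% in F vs C.

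The 2 probes of Rxra differed in how they followed the slides. In muscle the second probe of Rxra read 9.64 to 11.06 on the 8 arrays of slides 3 and 11 and 11.27 to 11.88 on the other 13, without overlap. In aorta it read 8.75 to 9.91 on the 4 arrays of slide 1 and 10.6 to 11.36 on the other 17. The first probe was higher there, 8.05 against 7.79 on average in muscle and 7.13 against 6.74 in aorta, with overlap in both. In E vs C in muscle, where 30.7% of probes were called, the second probe fell by 1.73 ± 0.19 SE (adjusted p = 0.000203), and the first rose by 0.49 ± 0.13 (adjusted p = 0.0305). In F vs C in muscle the second probe fell by 1.25 ± 0.21 SE (adjusted p = 0.00509, 23.1% of probes called), while the first did not fall and was not called. On healthy muscle arrays 1 and 2, which are on slide 3 and had no treatment, the second probe was lower than on healthy array 3, on slide 4.

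**Figure D4:**
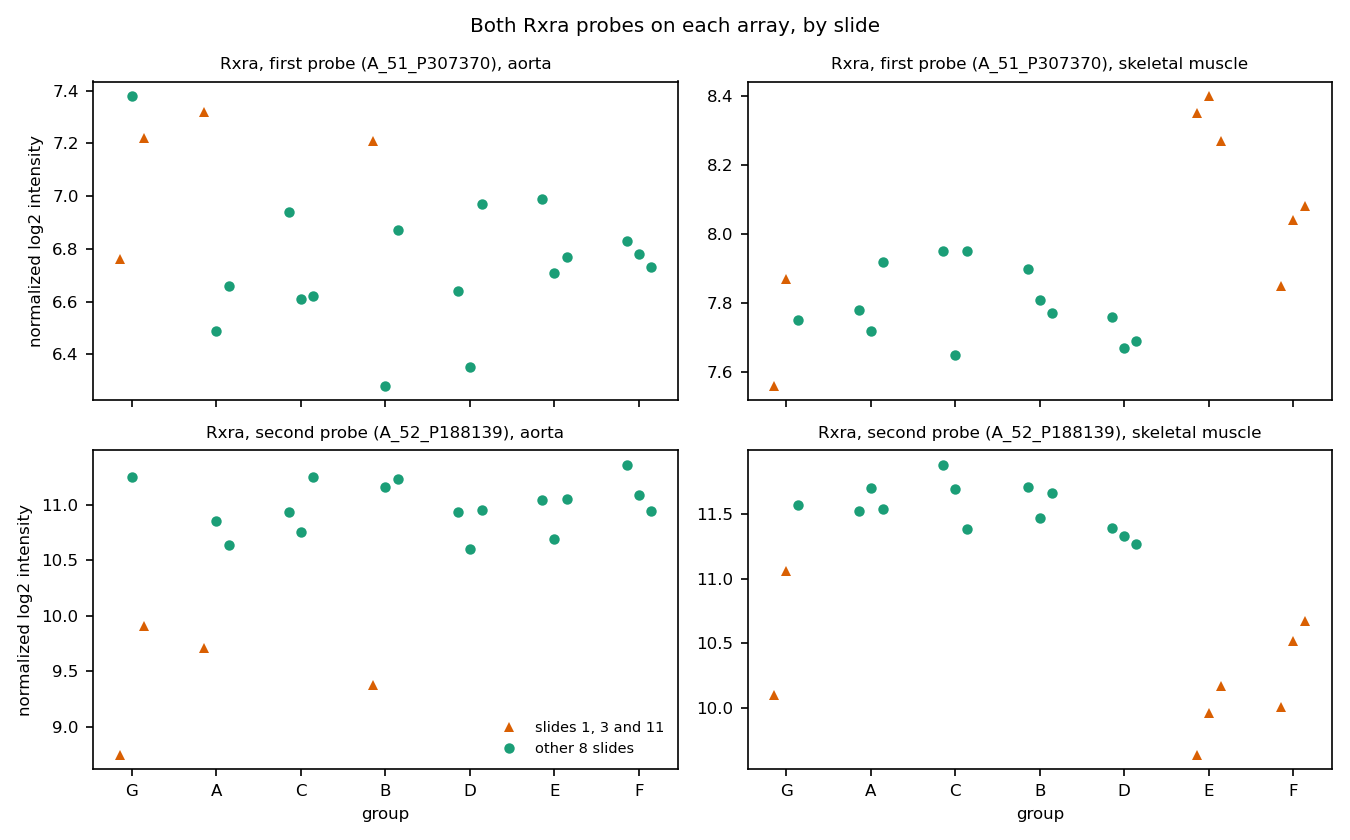
Normalized log2 intensity of the first (top) and second (bottom) Rxra probe on each array by group, in aorta on the left and skeletal muscle on the right, with triangles for arrays of slides 1, 3 and 11 and circles for the other 8 slides. In every group with both the second probe reads lower on triangles than on circles, at 8.75 to 9.91 against 10.6 to 11.36 in aorta and 9.64 to 11.06 against 11.27 to 11.88 in muscle.

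Other genes of the set differed by slide as well. Arrays of slides 1, 3 and 11 were higher than the rest of their tissue on average by 0.69 in aorta and 0.56 in muscle for Ppara, by 0.92 and 0.46 for Pparg and by 0.74 and 0.3 for Ppargc1a. For Rxra the differences were -0.57 and -0.51, and for Rxrg they were -0.25 and 0. These are averages over different groups in each case.

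Across the arrays of a tissue the genes varied together in aorta. Among 56 pairs of the 8 genes within a tissue, each tested by permutation over 21 arrays, Pparg rose and fell with Ppargc1b (r = 0.92, rho = 0.96), Ppara (r = 0.9, rho = 0.91) and Ppargc1a (r = 0.86, rho = 0.92), and Ppargc1a with Ppargc1b (r = 0.92, rho = 0.92). The permutation p of each of these was 2e-05 or the smallest possible, 1e-05 (adjusted p = 0.000112 to 0.000187). Without the 2 farthest arrays r was 0.94, 0.9, 0.9 and 0.88, and on the 17 arrays of slides other than slide 1 it was 0.9, 0.88, 0.85 and 0.91. Rxrb varied with Ppargc1b (r = 0.85) and Ppargc1a (r = 0.83), whereas Rxra and Ppard had no pair past an adjusted p of 0.05 in aorta. These points share the tissue, and arrays on the same slide share that slide.

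In muscle the strongest pairs were others. Rxrg and Ppargc1b had r = 0.83 (rho = 0.64, permutation p = 0.00026, adjusted p = 0.00146), 0.54 without the 2 farthest arrays and 0.47 over the 18 KK/Ay arrays. On the 13 arrays of other slides r was 0.91 for this pair. Ppara and Ppargc1a had r = 0.69 (rho = 0.58, permutation p = 0.00065, adjusted p = 0.00331), with 0.34 without the 2 farthest arrays. For these genes r was 0.81 on the arrays of other slides and 0.78 over the 18 KK/Ay arrays. Pparg and Rxra had r = -0.63 (rho = -0.61, permutation p = 0.00262, adjusted p = 0.0122), but -0.12 on the 13 arrays of other slides and -0.48 over the 18 KK/Ay arrays. Without the 2 farthest arrays r was -0.37 for the last pair, so that all these muscle relations weakened without those arrays.

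**Figure D5:**
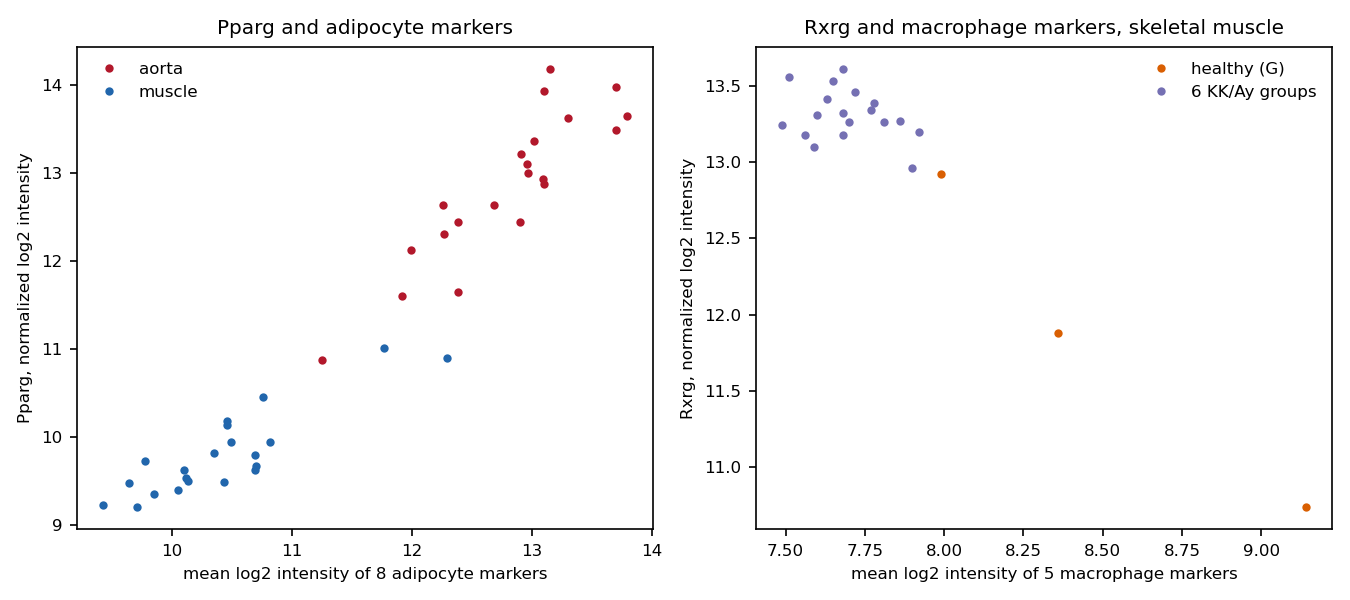
On the left, the Pparg level of each array against the mean level of 8 adipocyte markers, in aorta (red) and skeletal muscle (blue), and on the right, the Rxrg level in muscle against the mean level of 5 macrophage markers, for healthy (orange) and KK/Ay mice (purple), all on the log2 scale. Pparg follows the adipocyte markers in aorta (r = 0.89) and in muscle (r = 0.88), and the relation on the right rests on the 3 healthy arrays.

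Pparg followed the adipocyte markers in both tissues. In aorta r was 0.89 (rho = 0.9, permutation p = 1e-05, the smallest possible, adjusted p = 0.00032 over 128 relations), and 0.8 without the 2 farthest arrays. On slides other than slide 1 it was 0.92, and over the 18 KK/Ay arrays 0.87. In muscle r was 0.88 (rho = 0.82, permutation p = 1e-05, adjusted p = 0.00032) and 0.71 without the 2 farthest arrays. Ppara (r = 0.8), Ppargc1a (r = 0.78) and Ppargc1b (r = 0.84) also followed these markers in aorta, with adjusted p of 0.00032 to 0.00128. In muscle they did not (r = 0.31, -0.2 and -0.29, permutation p of 0.168, 0.373 and 0.19). Rxrb followed them in aorta too (r = 0.73, permutation p = 0.00033, adjusted p = 0.00422). Other lists passed there as well. Pparg went with cardiac (r = 0.61), brown adipocyte (r = 0.6) and endothelial markers (r = 0.58). The adjusted p of these was 0.0185 to 0.0358. Ppargc1a went with brown adipocyte (r = 0.76, adjusted p = 0.00201) and cardiac markers (r = 0.63, adjusted p = 0.013). Ppargc1b (r = 0.7, adjusted p = 0.00422) and Rxrb (r = 0.61, adjusted p = 0.0212) also went with brown adipocyte markers. Rxrg (r = 0.69, adjusted p = 0.00617) and Ppara (r = 0.65, adjusted p = 0.0103) went with endothelial markers. The rank correlations of Rxrb, Rxrg and Ppara here did not pass after adjustment, nor did those of Pparg with brown adipocyte and endothelial markers. In muscle Rxra went with brown adipocyte markers (r = 0.66, rho = 0.85, permutation p = 0.00113, adjusted p = 0.0103), with r = 0.41 on the 13 arrays of other slides. Pparg, Fabp4, Adipoq and Plin1 are themselves known in fat cells. The adipocyte markers Adipoq, Plin1, Fabp4, Cidec and Lipe are also in the list of PPAR targets described below. The same holds for Cidea of the brown adipocyte markers. These lists are therefore not separate from each other.

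The genes most like each member over the 42 arrays, as Pearson r of log2 values minus the tissue mean among 16107 genes, are given as a description. For Pparg they were Acvr1c (0.893), Carhsp1 (0.887) and Lipe (0.886), for Ppara Akt2 (0.885), Gpx3 (0.857) and Hsd17b4 (0.845), and for Ppard Ascl2 (0.664) and Rnf151 (0.648). For Rxra they were Ube2r2 (0.893), Tlr9 (0.889) and Eif1 (0.867), for Rxrb Ogfod2 (0.87), Pkm2 (0.853) and Tubg1 (0.851), and for Rxrg 1810012P15Rik (0.909), LOC100502705 (0.878) and Pstk (0.877). For Ppargc1a they were 2310061I04Rik (0.897), Cox19 (0.897) and Pde4d (0.874), and for Ppargc1b Gpd1 (0.917), Dlst (0.916) and Vegfa (0.906). Ppard, the dim gene, had the lowest likeness.

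The targets of the PPARs were followed in a list of 44 known target genes, 43 of them on the array. In A vs G over both tissues 11 of 41 tested were called, 3 higher and 8 lower (22.1% of all genes were called), with a median change of -0.1 against 0.029 over all genes. After adjustment Ehhadh, an enzyme of peroxisomal fatty acid oxidation, was lower (-1.68 ± 0.42 SE, adjusted p = 0.0431), as was Nr1h3, the liver X receptor alpha (-0.73 ± 0.13, adjusted p = 0.0113), and Retsat, retinol saturase, was higher (1.11 ± 0.20, adjusted p = 0.00911). In aorta 12 were called against 17.0% of genes, 3 higher and 9 lower, led by Scd1, the fatty acid desaturase (-3.93, adjusted p = 0.0413), Ehhadh (-2.87), the fatty acid transporter Slc27a1 (-1.70) and Retsat (1.43). In muscle 4 were called, 3 of them higher, against 12.7% of genes.

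In C vs G over both tissues 12 of 42 targets were called, 2 higher and 10 lower (median -0.26 against 0.026), which is near the 24.3% of all genes called, and Scd1 (-3.01 ± 0.71 SE, adjusted p = 0.0341), Ehhadh (-1.90 ± 0.46, adjusted p = 0.037) and Nr1h3 (-0.84 ± 0.16, adjusted p = 0.0147) passed after adjustment. In aorta 13 were called (24.2% of genes), 11 of them lower, and all 6 that passed after adjustment (6.16% of genes) were lower. The aorta counts of A vs G and C vs G include healthy aorta array 1. Its mean target level was 11.2, against 12.31 and 12.26 on healthy aorta arrays 2 and 3. Target counts without that array were not taken. In muscle 5 were called, 2 higher and 3 lower, against 13.9% of genes. In C vs A none of 42 was called over both tissues (5.12% of genes) and 4 were in aorta (7.73% of genes), all lower. Among the 4 were Slc27a1 (-0.55, adjusted p = 0.466), Acot2 (-0.57, adjusted p = 0.582) and Ehhadh (-0.41, adjusted p = 0.629).

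Under treatment few targets passed. Rosiglitazone gave 2 of 42 over both tissues (against 12% of all genes), Ehhadh higher (0.61 ± 0.24 SE, adjusted p = 0.347) and Acaa1b, a peroxisomal thiolase, lower (-0.57 ± 0.20, adjusted p = 0.288), neither after adjustment, with a median of 0.03 against -0.002. In aorta, where 11.6% of genes were called, all 5 called were higher, with Ehhadh (1.02, adjusted p = 0.25), Cyp4a14, a fatty acid hydroxylase (0.36, adjusted p = 0.29), and Acot1, an acyl-CoA thioesterase (1.30, adjusted p = 0.369) at the smallest p. In muscle (18.5% of genes) 1 was higher and 2 lower, Acaa1b by -1.10 (adjusted p = 0.0102). The muscle arrays of rosiglitazone and huoxue lay on the slides described above. Slide and treatment cannot be told apart there, and values over both tissues include these arrays. Ehhadh in aorta was also higher with yangyinyiqi (0.60, adjusted p = 1) and huoxue (0.93, adjusted p = 0.95), as was Scd1 (1.15, adjusted p = 1, and 1.35, adjusted p = 0.95), all against the same arrays of group C. Over both tissues the counts were 1 of 42, lower, for SHENQI compound (Acot1, -0.39, adjusted p = 1, 2.71% of genes called), 2 of 43, higher, for yangyinyiqi (3.41%), and 4 of 42 for huoxue (14.3%), 2 higher and 2 lower, with Ehhadh (0.63, adjusted p = 0.269), Acaa1b (-0.63, adjusted p = 0.31) and Me1 (-0.80, adjusted p = 0.312) at the smallest p. Between the tissues 39 of 43 targets were called against 78.3% of genes, 32 higher in aorta and 7 lower (median 0.85), and Cidea (6.41), Plin1 (3.88), Plin2 (3.28) and Adipoq (3.06), all of fat storage, led the list. Plin1 and Adipoq are also counted as adipocyte markers and Cidea as a brown adipocyte marker.

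The cofactors that PPARs recruit, 16 genes, had 3 called in A vs G over both tissues and 5 in C vs G, where 22.1% and 24.3% of all genes were. Lpin1, a coactivator of Ppara, was lower in both (-1.31 ± 0.27 SE, adjusted p = 0.0197, and -1.71 ± 0.34, adjusted p = 0.0183), and Prdm16, a coregulator of the brown fat programme that is also in the brown adipocyte list, was higher in C vs G (1.71 ± 0.40 SE, adjusted p = 0.031). Prdm16 was lower with huoxue (-0.83 ± 0.17 SE, adjusted p = 0.173) and rosiglitazone (-0.83 ± 0.15, adjusted p = 0.0958) than in group C, and in muscle by -1.27 (adjusted p = 0.000657) and -0.95 (adjusted p = 0.0407), on the slides described above. The corepressor Nrip1 was 0.26 higher with rosiglitazone (adjusted p = 0.206) and with yangyinyiqi (adjusted p = 0.999), where Sirt1 was also higher (0.17, adjusted p = 0.999), and the coactivator Ncoa1 was 0.29 higher with huoxue (adjusted p = 0.279). That makes 2 of 16 called over both tissues in each of D, E and F vs C, where 3.41%, 14.3% and 12% of genes were. In C vs A none was called in limma over both tissues (5.12% of genes) and 1 was in aorta (7.73% of genes). With SHENQI compound none was called over both tissues (2.71% of genes), 1 in aorta (4.67%) and 1 in muscle (1.14%). Between the tissues 12 of 16 were called, near the 78.3% of all genes, 2 higher in aorta, Prdm16 (1.76) among them, and 10 higher in muscle, Lpin1 (-1.14), Hdac3 (-0.77) and Nrip1 (-0.62) among them.

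Other nuclear receptors that pair with RXR, 13 genes of which 9 to 12 were tested, had 5 of 9 called in A vs G over both tissues (22.1% of all genes), 3 higher and 2 lower, among them Nr1h3 and the retinoic acid receptor Rarb (0.77 ± 0.20 SE, adjusted p = 0.0477). In C vs G 5 of 12 were called (24.3% of genes), and Nr1h3 passed after adjustment. Nr1h3 is also counted among the PPAR targets. With rosiglitazone, where 12% of genes were called over both tissues, 1 was, Nr1h2, the liver X receptor beta (-0.22, adjusted p = 0.406). In aorta Nr1h2 fell by 0.47 ± 0.08 SE (adjusted p = 0.174), where 11.6% of genes were called. None was called over both tissues in the C vs A comparison (5.12% of genes) or with B (2.71%), D (3.41%) or E (14.3%). Between the tissues 7 of 12 were called against 78.3% of genes, with Nr4a1 (-2.55), Rara (-0.52) and Rarb (-0.52) higher in muscle and Nr4a2 (0.53) higher in aorta.

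The factors that PGC-1 proteins work with, 20 genes, had 2 called in A vs G over both tissues, where 22.1% of all genes were called (Mef2c, 0.49, adjusted p = 0.168, and Foxo1, -0.58, adjusted p = 0.173) and 2 in C vs G, where 24.3% were (Prkaa1, -0.25, adjusted p = 0.146, and Foxo1, -0.55, adjusted p = 0.152). Foxo1, a factor that Ppargc1a coactivates, was lower in muscle of both (-1.17 ± 0.23 SE, adjusted p = 0.0347, and -1.10 ± 0.21, adjusted p = 0.0319). In C vs A 1 was called, Prkaa2 (-0.28, adjusted p = 0.964), where 5.12% of genes were, and none with SHENQI compound, where 2.71% were. With yangyinyiqi 2 were called, Tfb1m (0.19, adjusted p = 0.999) and Foxo1 (0.18, adjusted p = 0.999), where 3.41% of genes were. Nrf1, a regulator of respiratory chain genes, was lower with huoxue (-0.38 ± 0.09 SE, adjusted p = 0.176) and rosiglitazone (-0.36 ± 0.07, adjusted p = 0.097), and Tfb1m was 0.20 higher with both. With huoxue Tfam was also lower (-0.30, adjusted p = 0.312) and with rosiglitazone Esrrg was higher (0.26, adjusted p = 0.414), which gives 3 of 20 in each, where 14.3% and 12% of genes were called. These fits include the huoxue and rosiglitazone muscle arrays, which lay on the slides described above. Slide and treatment cannot be told apart in them. Between the tissues 18 of 20 were called (78.3% of genes), 6 higher in aorta and 12 in muscle, the latter led by Prkaa2 (-3.20), Mef2c (-1.24), Esrrb (-1.17) and Esrrg (-1.03).

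The marker lists were read for the cell types in the samples. Between the tissues 78.3% of all genes were called. Fast (7 of 7, median -6.48) and slow muscle markers (6 of 6, -6.93) were higher in muscle. Smooth muscle (5 of 6, 3.66), endothelial (3 of 5, 0.33), macrophage (2 of 5, 0.26) and lymphocyte markers (3 of 4, 1.12) were higher in aorta. The endothelial and macrophage counts were below the share of all genes, and the lymphocyte count was near it. Of the cardiac markers 4 were higher in aorta and 1 lower. In A vs G over both tissues 3 of 8 adipocyte markers were called, where 22.1% of genes were. Lep was higher (2.29 ± 0.27 SE, adjusted p = 0.000605), and Retn (-3.17 ± 0.36, adjusted p = 0.000533) and Cfd (-2.38 ± 0.56, adjusted p = 0.0365) were lower. In C vs G the same 3 genes were called, at 2.01, -3.72 and -2.70, where 24.3% of genes were. In A vs G, 3 of 6 brown adipocyte, 2 of 6 slow muscle, 2 of 6 smooth muscle and 1 of 5 endothelial markers were also called, and in C vs G 1 brown adipocyte, 2 smooth muscle and 1 macrophage marker. Over both tissues under treatment no marker list had more than 2 called, where 2.71% (B), 3.41% (D), 14.3% (E) and 12% (F) of genes were. Within aorta 3 of 6 smooth muscle markers were called with rosiglitazone, all lower (median of the list -0.59), where 11.6% of genes were called. Levels within aorta were uneven, with fast skeletal muscle markers between 7.25 and 15.02 and cardiac markers between 5.98 and 11.69, and the part of these cells in the aorta values was not tested.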

How the data were processed

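The deposited arrays hold 42 single-colour Agilent scans of mouse aorta and skeletal muscle RNA. Per the file headers, Feature Extraction 10.7.3.1 gave each spot a median foreground and background intensity, neither normalized. A table of log2 values that the authors deposited served as an alternative only. Here the background was corrected by normexp without offset and all arrays were quantile normalized on the log2 scale. Control spots and irregular spots were left out, and spots were averaged to probes and probes to genes. Probes had to be well above background throughout 1 or more of the 4 group and tissue sets of a comparison (all 3 arrays), or their gene was not tested. Differences were tested with limma 3.58.1 in R 4.3.3 across all genes, on the 12 arrays of a comparison with a tissue term, within tissue or as the tissue difference, or on 42 arrays for aorta against muscle, with Benjamini-Hochberg adjustment. The fits were tested on simulated data with 200 genes changed by 1 log2 unit in both tissues, independent noise and no slide effect. At unadjusted P below 0.05 they recovered 91.5% of those genes in A vs G and 96% in F vs C over both tissues. Of unchanged genes 4.7% and 4.49% were called. Smaller changes, slide effects and a spread that differs between the tissues were not simulated. Correlations used 100000 permutations, and p values given after both r and rho are those of r. All 8 genes are named, and of each list those past the adjusted threshold (at most 4) or otherwise at most 3 with the smallest p. The members and lists were chosen with earlier results of these data known, and so was the slide grouping. Promoters come from RefSeq, GRCm38.p6, while the array files use mm9. Ppargc1b has no position given here. One gene that the rule for likeness names is not reported here.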

Additional observations from a re-analysis of the deposited data

Results flagged for a closer look

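The change in Rxra differed between aorta and skeletal muscle under the huoxue part by 0.64 on the log2 scale (limma, adjusted p = 0.0831) and under rosiglitazone by 0.66 (limma, adjusted p = 0.126), in both cases as the change in aorta minus that in muscle. With slides 1, 3 and 11 as a batch term the differences were 0.04 and 0.06 and neither was called (adjusted p = 0.999 for both). In muscle under the huoxue part the 2 probes of Rxra moved in opposite directions. The huoxue muscle arrays lay on slide 11 and the rosiglitazone ones on slides 3 and 11, none of which held an array of group C, so slide and treatment cannot be told apart there.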

How the results depend on the processing

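Of the 8 genes, 1 was called in A vs G over both tissues, and 2 with a normexp offset of 50, without the filter, with the brightest probe, with all 42 arrays in 1 fit or with slides 1, 3 and 11 as a batch, 0 in aorta alone and 3 in muscle alone. In C vs G the 1 became 3 with the brightest probe, all 42 arrays or muscle alone, 2 with the authors' table or the batch term and 0 in aorta alone. In E vs C the 1 became 0 with the processed signal, the authors' table, all 42 arrays, the batch term, the replicate block, slide as a random block or aorta alone, and 4 in muscle alone. In D vs C the 0 became 1 with the replicate block or muscle alone, and in F vs C the 0 became 1 with the brightest probe and 4 in muscle alone. Of single changes within a tissue 6 were called, 11 with the replicate block and 16 when the changes in muscle were taken from muscle alone and those in aorta left as they were, and of differences between the tissues 2 were called, 4 with the processed signal or the batch term and 5 with the replicate block. Rxra in E vs C over both tissues turned to 0.003 with the batch term and 0.024 in aorta alone, and in F vs C in muscle to 0.047 under the batch term. The cause was not tested. Between the 2 groups of a comparison, same-numbered arrays of a tissue were mostly not alike. Only 10 of 42 such pairs correlated above 0.1 (range -0.54 to 0.6), so the block values are given here only. These pairs do not join aorta with muscle. Whether same-numbered aorta and muscle arrays share a mouse was therefore not tested. When each array was left out in turn, the count was 1 to 3 in A vs G and 0 to 3 in C vs G, both highest without healthy aorta array 1, 0 to 1 in D vs C, E vs C and F vs C, 0 to 0 in C vs A and B vs C, 3 to 14 within a tissue (14 without healthy aorta array 1) and 2 to 8 between the tissues (8 without group C aorta array 1). Between aorta and muscle 7 genes were called in each case. Ppard, near background, has the least certain values.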
